A study of Homo sapiens with 24 samples.

Results

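PPARG encodes the peroxisome proliferator-activated receptor gamma, and it was described here with 7 genes of the same system in SW480 and SW620 cells, colorectal cancer lines from the same patient. The 8 genes, of 33382 listed, were PPARG, its relatives PPARA and PPARD, the partner receptors RXRA and RXRB, and the lipid-linked targets PLIN2, PDK4 and FABP1. The genes were chosen by the measured levels of PPARG, its fall in SW480 cells with Tet2CD and its higher level there with TGFB1, so its values in every SW480 library, and each difference that uses them, are a description and carry no test. Tet2CD is the catalytic domain of TET2, a dioxygenase that oxidises 5-methylcytosine. Both lines were infected with a lentivirus carrying Tet2CD or with the empty vector, all were selected with 5 µg/ml puromycin as infected cell populations, and they were then kept for 24 h with DMSO, with TGFB1 (a cytokine, 4 ng/ml) or with RepSox (1 µM, which blocks ALK5, a receptor kinase for TGFB1). Each of the 12 combinations of line, construct and treatment was sequenced as 2 RNA-seq libraries, named replicate 1 and 2 here, and no source read here names the promoter that drives Tet2CD. The study's text gives another ligand mix and a longer treatment, and the sample labels are followed.

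The 3 PPARs are nuclear receptors that bind fatty acids and their derivatives, pair with an RXR, and bind DNA at a direct repeat of the half-site AGGTCA with 1 base between the copies. PPARG is best known as the driver of fat cell formation and is also made in the epithelium of the colon. PPARA drives fatty acid oxidation in liver, and PPARD is made in most tissues. PLIN2 coats lipid droplets, PDK4 is a kinase that holds back pyruvate dehydrogenase and so favours fatty acid use, and FABP1 is a fatty acid binding protein of liver and intestine.

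The promoter of PPARG is shown because its transcript level is the one the genes were gathered around, and that of FABP1 because it held the closest match to the PPAR element. RefSeq's table for GRCh38.p14 gave 16 windows for the 8 genes, 6 of them for PPARG, each from 250 bases before to 50 bases after a transcript start. Printed below are the bases before the start that lie outside annotated exons, 5′ to 3′ on the strand of the gene. PPARG spans chr3:12287368-12434356 on the plus strand, and the printed stretch is chr3:12287118-12287367, with its 2 AGGTCA half-sites in capitals. FABP1 spans chr2:88122982-88128116 on the minus strand, and the printed stretch is chr2:88128117-88128312, with a direct repeat of AGGTCA in capitals that reads on the opposite strand and has 2 mismatches in 12 positions.
PPARG: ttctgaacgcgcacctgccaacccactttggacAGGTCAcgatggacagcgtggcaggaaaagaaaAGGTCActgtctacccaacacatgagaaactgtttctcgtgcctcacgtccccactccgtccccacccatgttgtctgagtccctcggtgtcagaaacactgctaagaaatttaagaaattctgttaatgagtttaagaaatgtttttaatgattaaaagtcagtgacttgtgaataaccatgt
FABP1: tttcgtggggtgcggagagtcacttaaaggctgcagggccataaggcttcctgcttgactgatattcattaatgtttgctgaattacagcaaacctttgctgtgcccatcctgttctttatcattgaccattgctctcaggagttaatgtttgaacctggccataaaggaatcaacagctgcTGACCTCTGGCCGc

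Matches were searched on both strands. AGGTCA stood in 4 of the 16 windows (3 of PPARG, of which 2 overlap, and that of FABP1), against 13.8% of 35116 promoters. The direct repeat at 2 or fewer mismatches, which contains the half-site, stood in 1 of the 16, that of FABP1, against 2.97% of promoters. CAGAC, a SMAD element, stood in 8 of the 16 against 45.3%, and TGACTCA, an AP-1 element, in 0 of the 16 against 4.9%. The windows of PPARG held 1 to 10 CG dinucleotides against a median of 14 over all promoters. That of FABP1 held 7 and those of RXRA 65 and 8, whereas those of PPARA held 52 each and that of PLIN2 36. These are matches of letters, and neither binding nor methylation was measured in these libraries.

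Levels within a library are given per length as TPM, which corrects for transcript length and depth, and comparisons between groups used CPM, counts scaled by depth and TMM factors, in 1 edgeR fit. The libraries held between 2146123 and 4410567 expected counts, and 15302 genes were tested. The construct was checked by its own transcript. TET2 was between 1.92 and 4.57 TPM in the 12 vector libraries and between 23.4 and 500.0 TPM in the 12 Tet2CD libraries, with log2 fold changes of 6.11 to 6.28 (adjusted p at most 0.00013). The 3 SW480 Tet2CD libraries named replicate 1 stood apart from their partners: the log2 differences within a pair had an SD over genes of 0.697 to 1.133, against 0.409 to 0.541 in the other 9 groups. Their TET2 was 116, 95.6 and 23.4 TPM against 326, 500.0 and 291 TPM in replicate 2. For the Tet2CD comparisons in SW480, values without these 3 libraries are given beside the main ones, and there, as wherever 1 library is left out, the remaining single library of a group is assumed to vary like the other groups. Of 12 colorectal epithelial markers 8 had a mean of at least 1 TPM in SW480 and 10 in SW620, with a summed level of 7940 to 14700 TPM. Of 9 fat cell markers 4 were at that level in both lines (CIDEC, LIPE, ADIRF and CFD), with a sum of 167 to 368 TPM in SW480 and 50.3 to 108 TPM in SW620 and FABP4 at 0 in every library. Of 7 liver markers 1 was (SERPINA1), with a sum of 257 to 474 TPM in SW480 and 30.5 to 283 TPM in SW620 and TTR at 0 in every library. Their part in the results was not tested.

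PPARG was lowest in SW480 cells with Tet2CD and highest in SW620 cells with TGFB1. In SW480 vector cells it was 15.8 and 13.4 TPM with DMSO, 16.8 and 12.8 TPM with TGFB1, and 20.8 and 18.1 TPM with RepSox. In SW480 Tet2CD cells it was 1.81 and 2.69 TPM with DMSO, 6.23 and 11.4 TPM with TGFB1, and 2.68 and 5.17 TPM with RepSox. Every SW480 Tet2CD library was below every SW480 vector library, and the DMSO values rested on 4 and 8 counts. In such bulk libraries, fewer cells with the transcript and less of it per cell cannot be told apart. In SW620 vector cells PPARG was 31.3 and 30.6 TPM with DMSO, 87.6 and 71.0 TPM with TGFB1, and 38.1 and 41.7 TPM with RepSox. In SW620 Tet2CD cells it was 30.8 and 29.1 TPM with DMSO, 86.5 and 86.1 TPM with TGFB1, and 40.9 and 42.4 TPM with RepSox. When the 12 groups were put in order of their mean, from 2.25 TPM ± 0.622 (SD, n = 2) to 86.3 TPM ± 0.24 (SD, n = 2), the libraries of neighbouring groups overlapped in 5 of 11 pairs. These were, in SW480, Tet2CD with DMSO and with RepSox and vector with DMSO and with TGFB1, and, in SW620, the vector and Tet2CD groups of each treatment. This overlap is in TPM. In CPM, used here to compare groups, the SW480 Tet2CD libraries did not overlap, at 1.57 and 1.99 with DMSO and 5.45 and 4.96 with RepSox. The SW480 vector libraries with RepSox, at 20.9 and 16.5 CPM, did overlap those with DMSO (16.7 and 14.3) and with TGFB1 (16.6 and 11.7).

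**Figure D1:**
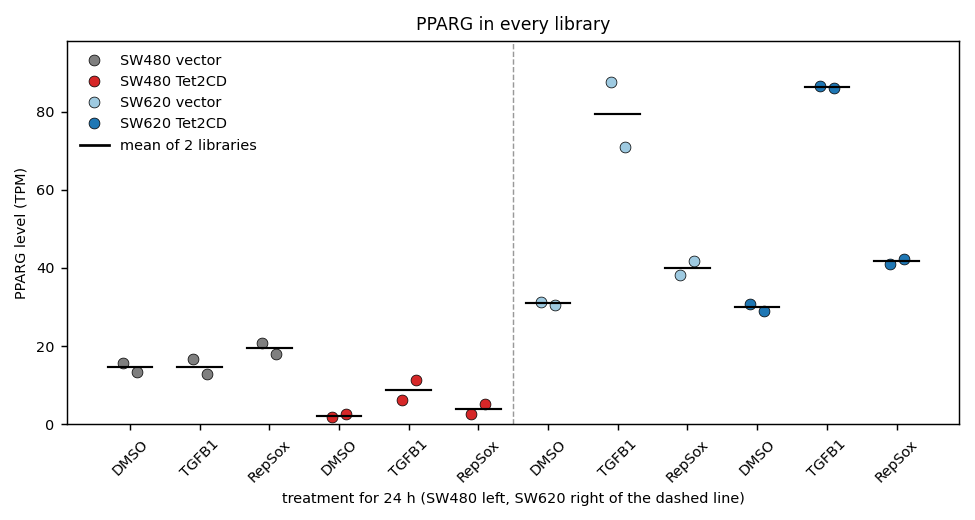
PPARG level in TPM (linear axis from 0) in the 24 libraries, by treatment, with SW480 left and SW620 right of the dashed line. Each point is 1 library and each bar the mean of 2. The 6 SW480 Tet2CD libraries lie between 1.81 and 11.4 TPM, below the 6 SW480 vector libraries at 12.8 to 20.8 TPM, and the 4 SW620 libraries with TGFB1 lie between 71.0 and 87.6 TPM.

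Which PPAR was the most abundant differed between the lines. Per length, PPARD was above PPARG in 12 of 12 SW480 libraries and PPARG above PPARD in 12 of 12 SW620 libraries. PPARG made up 8.1 to 18.2% of the summed TPM of the 3 PPAR genes in SW480 vector cells and 3.48 to 14.3% in SW480 Tet2CD cells, against 64.3 to 82.0% in SW620 vector cells and 61.2 to 80.9% in SW620 Tet2CD cells. The summed TPM was 103 to 158 in SW480 vector cells, 30.6 to 94.3 in SW480 Tet2CD cells, 43.2 to 107 in SW620 vector cells and 47.6 to 117 in SW620 Tet2CD cells. Between groups, TPM and CPM differed in size. PPARD, the largest part in SW480, was 81.5 to 132 TPM with vector and 24.8 to 70.8 TPM with Tet2CD. In CPM it was 178 to 278 with vector and 103 to 149 with Tet2CD.

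With Tet2CD in SW480 cells, the fitted PPARG values were lower under each treatment, a description given how the gene was chosen. The log2 fold change was -3.07 (SE 0.28) with DMSO, from 15.5 to 1.78 CPM, and -0.53 (SE 0.22) with TGFB1, from 14.1 to 9.88 CPM. With RepSox it was -1.85 (SE 0.24), from 18.7 CPM ± 3.11 to 5.21 CPM ± 0.345 (SD, n = 2 each), -2.06 to -1.71 with 1 library left out and -1.9 without the 3 replicate 1 libraries. The value with TGFB1 was -0.27 without vector replicate 1 and -0.80 without vector replicate 2. In SW620 cells PPARG was 50.3 CPM with vector and 51.8 CPM with Tet2CD over the 3 treatments, and its log2 fold change was 0.01 (SE 0.11, adjusted p = 1). The difference between the lines in the Tet2CD effect with RepSox was -1.88 on the log2 scale (SE 0.31), again a description.

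Among the targets, PLIN2 fell with Tet2CD in SW480 cells under each of the 3 treatments. It spans chr9:19108375-19149290 on the minus strand. In SW480 vector cells PLIN2 was 105 and 99.2 TPM with DMSO, 104 and 111 TPM with TGFB1, and 94.7 and 99.8 TPM with RepSox. In SW480 Tet2CD cells it was 44.9 and 50 TPM, 42.2 and 70.8 TPM, and 30.3 and 64.0 TPM in the same order. The 6 Tet2CD libraries lay at 30.3 to 70.8 TPM and the 6 vector libraries at 94.7 to 111 TPM, without overlap. The log2 fold change was -0.82 with DMSO (SE 0.15, adjusted p = 0.00403), -0.68 with TGFB1 (SE 0.15, adjusted p = 0.00469) and -0.73 with RepSox (SE 0.15, adjusted p = 0.00625). Without the 3 replicate 1 libraries these were -0.95, -0.72 and -0.64 (adjusted p = 0.000444, 0.00187 and 0.00867). The DMSO call was lost without vector replicate 1 (adjusted p = 0.0589) and the RepSox call without Tet2CD replicate 1 (adjusted p = 0.0603). With the SW480 libraries fitted on their own, none of the 3 passed (adjusted p = 0.0893, 0.0651 and 0.0982). In SW620 the change of PLIN2 was -0.24 (SE 0.08, adjusted p = 0.444), and the difference between the lines with RepSox, -0.52 (SE 0.21), had an adjusted p of 0.252.

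PPARD fell with Tet2CD in SW480 cells with TGFB1 and with RepSox. It spans chr6:35342558-35428191 on the plus strand. In SW480 vector cells it was 81.5 and 102 TPM with DMSO, 116 and 132 TPM with TGFB1, and 88.4 and 96.8 TPM with RepSox. In SW480 Tet2CD cells it was 40.5 and 63.4 TPM, 34.1 and 70.8 TPM, and 24.8 and 69.6 TPM in the same order. Every Tet2CD library was below every vector library, and replicate 1 was the lower of each Tet2CD pair. The log2 fold change was -0.67 with DMSO (SE 0.22, adjusted p = 0.0757), -1.05 with TGFB1 (SE 0.22, adjusted p = 0.00378) and -0.66 with RepSox (SE 0.22, adjusted p = 0.0445). Without the 3 replicate 1 libraries they were -0.57, -0.88 and -0.43 (adjusted p = 0.0479, 0.00172 and 0.121), so the DMSO change then passed and the RepSox change did not. The TGFB1 call was lost without Tet2CD replicate 1 (adjusted p = 0.0583). The RepSox call was lost without Tet2CD replicate 1 (0.39), without vector replicate 1 (0.105) and without vector replicate 2 (0.194).

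PPARA, RXRA, RXRB and PDK4 had no call with Tet2CD in either line. PPARA was 5.21 to 13.2 TPM in SW480 vector cells (median 9.54) and 3.09 to 12.1 TPM in SW480 Tet2CD cells (median 6.29), and the groups overlapped. RXRA was 30.1 to 43.6 TPM in SW480 vector cells and 15.2 to 31.0 TPM in SW480 Tet2CD cells, with log2 fold changes of -0.38, -0.32 and -0.16 on the CPM scale (adjusted p = 0.151, 0.141 and 0.453). RXRB overlaps SLC39A7 on the other strand, so that their reads may not be told apart. It was 18.2 to 27.4 TPM in SW480 vector cells and 8.29 to 24.2 TPM in SW480 Tet2CD cells. In CPM these were 28.2 to 39.6 and 26.3 to 36, with log2 fold changes of -0.1, 0.15 and -0.24 (adjusted p = 0.729, 0.532 and 0.319). PDK4 was 0.68 to 2.62 TPM in SW480 vector cells and 0.41 to 4.02 TPM in SW480 Tet2CD cells, on 3 to 30 counts a library. Its change with Tet2CD and TGFB1 was 1.08 (SE 0.58, adjusted p = 0.166), and 1.54 (adjusted p = 0.0374) without the 3 replicate 1 libraries. FABP1 was at 0 in 12 of 12 SW480 libraries, so no fold is given for it there, and in SW620 its log2 fold change was 1.48 (SE 0.50), not tested because FABP1 passed the filter on low counts through the SW620 Tet2CD libraries with TGFB1.

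Read against all genes, the 6 genes tested beside PPARG (FABP1 was at 0) had 1 call lower with Tet2CD in SW480 with DMSO, where 4.19% of genes tested were called higher and 2.57% lower. They had 2 calls lower with TGFB1, where 14.7% were higher and 10.0% lower, and 2 lower with RepSox, where 11.8% were higher and 7.57% lower. Of the genes called in these comparisons, 61.9%, 59.4% and 60.9% were higher, and with limma on log2(TPM + 1), which moved the median of all genes to -0.16, -0.21 and -0.38, 74.5%, 55.6% and 46.5%. The shares were 48.4%, 50.4% and 48.8% without the 3 replicate 1 libraries. In SW620 they had 0 calls, with 0.274% of genes higher and 0.0392% lower (1100 genes at an unadjusted p under 0.05, and 91 called by DESeq2). For the difference between the lines with RepSox, 0.268% of genes were higher and 0.0719% lower, and 0 of the 6 passed, against 3 without SW480 Tet2CD replicate 2.

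**Figure D2:**
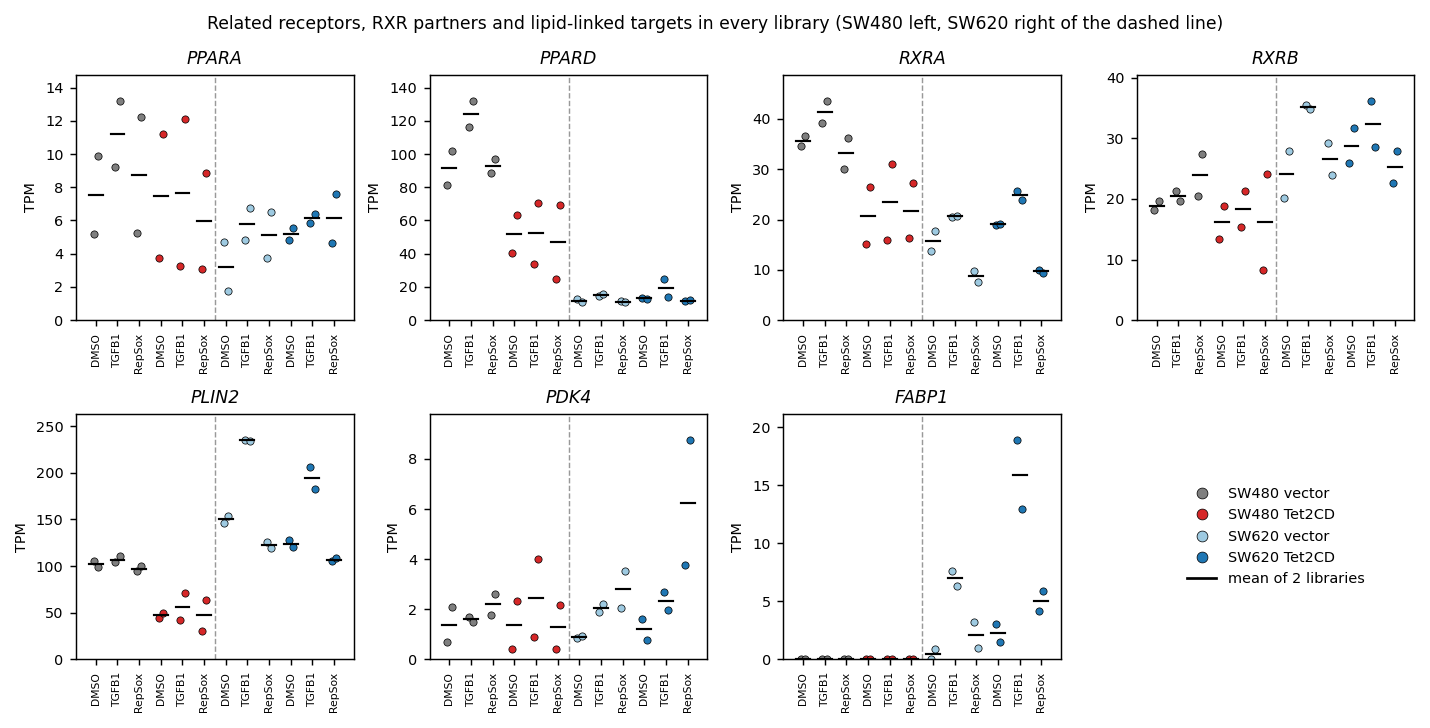
TPM of the other 7 genes in the 24 libraries (linear axes from 0, a scale for each gene), by treatment, with SW480 left and SW620 right of the dashed line. Points are libraries and bars means of 2. PLIN2 and PPARD are lower in SW480 Tet2CD than in SW480 vector libraries, PPARD is higher in SW480 than in SW620, and FABP1 is at 0 in SW480 and at 6.35 to 18.9 TPM in SW620 with TGFB1.

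With TGFB1 in SW620 cells, PPARG, PLIN2 and RXRA rose, each over the average of vector and Tet2CD cells. PPARG averaged 30.4 CPM with DMSO and 79.6 CPM with TGFB1, and its log2 fold change was 1.39 (SE 0.13, adjusted p = 4.6e-06, n = 4 each), and the call held whichever library was left out (1.30 to 1.43). The 4 TGFB1 libraries, at 71.0 to 87.6 TPM, were above the 4 DMSO libraries, at 29.1 to 31.3 TPM. PLIN2 was 146 and 154 TPM with DMSO and 235 and 234 TPM with TGFB1 in vector cells, and 128 and 120 TPM and 206 and 183 TPM in Tet2CD cells. The groups did not overlap, and the log2 fold change was 0.58 (SE 0.10, adjusted p = 0.00111).

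FABP1 was 0 and 0.88 TPM with DMSO and 7.6 and 6.35 TPM with TGFB1 in SW620 vector cells. In SW620 Tet2CD cells it was 3.07 and 1.5 TPM with DMSO and 18.9 and 13 TPM with TGFB1. The TGFB1 libraries held 9 to 23 counts and the DMSO libraries 0 to 4. The log2 fold change was 3.2 (SE 0.59). It is a description, since FABP1 passed the filter on low counts only through the Tet2CD libraries of this TGFB1 group. RXRA, on chr9:134317098-134440585, plus strand, was 13.8 to 19.1 TPM with DMSO and 20.6 to 25.7 TPM with TGFB1 over both constructs, and rose by 0.45 on the log2 scale (SE 0.11, adjusted p = 0.012). This call was lost without Tet2CD DMSO replicate 1 (adjusted p = 0.0575) or replicate 2 (0.0725), vector DMSO replicate 1 (0.0901) or vector TGFB1 replicate 2 (0.0905).

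PPARA (0.62, adjusted p = 0.172), PPARD (0.47, adjusted p = 0.0641), RXRB (0.30, adjusted p = 0.101) and PDK4 (0.84, adjusted p = 0.229) were not called. With the SW620 libraries fitted on their own, PPARA, PPARD and RXRB passed (adjusted p = 0.00546, 0.0112 and 0.0258), as they did without the 3 SW480 replicate 1 libraries (0.0389, 0.0114 and 0.0416). The 6 genes tested beside PPARG thus had 2 calls higher and 0 lower, in a comparison with 8.31% of genes higher and 7.27% lower.

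In SW480 cells, TGFB1 moved PPARG by -0.13 (SE 0.21) in vector cells and by 2.41 (SE 0.30) in Tet2CD cells on the log2 scale, from 1.78 to 9.88 CPM in the latter. The difference of these values was 2.54 (SE 0.36). All of these were used to choose the gene. On log2(TPM + 1) the value in Tet2CD cells was 1.56. The 6 others tested had 0 calls in both. PLIN2 changed by 0.04 (SE 0.15) in vector and 0.17 (SE 0.15) in Tet2CD cells, PPARD by 0.40 (SE 0.22) and 0.02 (SE 0.22), and PDK4 by 0.27 (SE 0.63) and 1.09 (SE 0.59). In vector cells 0.268% of genes were higher and 0.261% lower, in Tet2CD cells 0.085% higher and 0.00654% lower, and for the difference 0.0131% higher and 0% lower. Compared with SW480 vector cells, the TGFB1 change of PPARG in SW620 was larger by 1.52 (SE 0.24, a description). That of PLIN2 was larger by 0.54 (SE 0.18, adjusted p = 0.175), and 0.51 without the 3 replicate 1 libraries (adjusted p = 0.0244). In this comparison, chosen after the data were seen, 0.738% of genes were higher and 0.575% lower.

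With RepSox in SW620 cells, RXRA fell and PPARG rose, against the same DMSO libraries as in the TGFB1 comparison. RXRA was 13.8 and 17.8 TPM with DMSO and 9.86 and 7.65 TPM with RepSox in vector cells, and 19.0 and 19.1 TPM and 9.95 and 9.42 TPM in Tet2CD cells. The 4 RepSox libraries were below the 4 DMSO libraries, and the log2 fold change was -0.70 (SE 0.12, adjusted p = 0.00234, n = 4 each), which held whichever library was left out. With vector cells alone it was -0.6 (adjusted p = 0.134). PPARG was 38.1 to 42.4 TPM with RepSox against 29.1 to 31.3 TPM with DMSO, without overlap, and its log2 fold change was 0.50 (SE 0.13, adjusted p = 0.0386). This call was lost whichever of the 8 libraries was left out (adjusted p 0.0854 to 0.211).

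PDK4 was 0.87, 0.94, 1.60 and 0.79 TPM with DMSO and 2.07, 3.54, 3.76 and 8.75 TPM with RepSox in SW620, without overlap. Its log2 fold change of 1.21 (SE 0.44) had an adjusted p of 0.149, and of 0.0283 with the SW620 libraries fitted on their own. FABP1 changed by 1.64 (SE 0.69, adjusted p = 0.263), PLIN2 by -0.14 (SE 0.10), PPARD by -0.03 (SE 0.17), PPARA by -0.16 (SE 0.30) and RXRB by 0.03 (SE 0.12). The 7 genes beside PPARG had 0 calls higher and 1 lower, where 2.01% of genes were higher and 2.68% lower.

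In SW480 cells RepSox gave 0 calls over all genes (0% higher and 0% lower) with edgeR in vector and in Tet2CD cells. At an unadjusted p under 0.05 stood 242 and 494 genes, and DESeq2 called 1 and 0 genes. PPARG moved by 0.27 (SE 0.20) and 1.49 (SE 0.33), and RXRA by -0.11 (SE 0.16) and 0.10 (SE 0.16). The RXRA change in SW620 differed from that in SW480 vector cells by -0.58 (SE 0.20, adjusted p = 0.408), where 0.0784% of genes were higher and 0.111% lower.

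**Figure D3:**
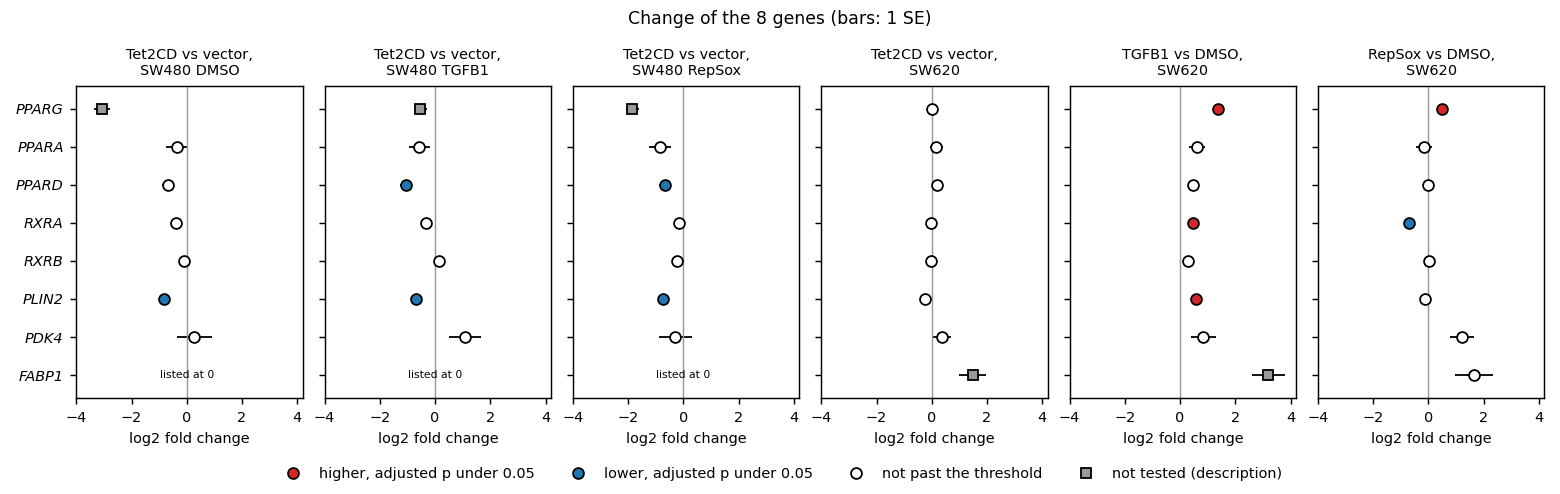
Log2 fold change (x axis, bars of 1 SE) of the 8 genes in 6 comparisons from the edgeR fit. Red and blue circles passed as higher or lower, white circles did not pass, and grey squares were not tested (PPARG where SW480 libraries enter, FABP1 in SW620 with Tet2CD or TGFB1). PLIN2 is lower in the 3 SW480 panels, and PPARG, RXRA and PLIN2 passed as higher with TGFB1 in SW620.

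Between the vector cells of the lines, 5 of the 6 genes tested differed, PPARD, PPARA and RXRA higher in SW480 and PLIN2 and RXRB lower. PPARD was 8.17-fold higher in SW480, at 217 against 26.6 CPM (log2 3.03, SE 0.14, adjusted p = 1.1e-11), from 81.5 to 132 TPM in SW480 and from 10.9 to 15.8 TPM in SW620. PPARA was 2.63-fold higher (log2 1.39, SE 0.23, adjusted p = 7.04e-05) and RXRA 2.30-fold higher (log2 1.2, SE 0.09, adjusted p = 8.95e-09). PLIN2 (log2 -0.73, SE 0.08, adjusted p = 1.18e-06) and RXRB (log2 -0.39, SE 0.10, adjusted p = 0.00242) were lower. PPARG, as a description, was 16.1 CPM in SW480 against 50.3 CPM in SW620 (log2 -1.55, SE 0.11), and the log2 value was -1.03 with DMSO alone and -2.43 with TGFB1 alone. RXRB did not pass with DMSO alone (-0.38, adjusted p = 0.0985) or RepSox alone (-0.13, adjusted p = 0.574). FABP1, with 25 counts over 6 SW620 vector libraries and 0 over 6 SW480 vector libraries, was at least 8.57-fold higher in SW620 taking 3 counts over the SW480 group as the floor. In Tet2CD cells, with 55 counts against 0, it was at least 14.3-fold higher with the same floor. Of these counts, 4 and 2 came from the DMSO libraries, 23 and 12 from TGFB1 and 6 and 8 from RepSox. The TGFB1 libraries are those through which FABP1 passed the filter. In both folds the SW620 counts were taken as they stand, without their counting error. Of the vector counts, 0 and 1 came from the DMSO libraries, 10 and 9 from TGFB1 and 4 and 1 from RepSox, so no fold is given with DMSO alone. PDK4 was 3.02 and 2.93 CPM (log2 0.10, SE 0.36, adjusted p = 0.829). Over all genes tested, 28.9% passed as higher in SW480 and 30.0% as lower in this comparison of 6 libraries with 6.

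Around these genes, 112 further genes of the pathway were listed, of which 86 were tested. With Tet2CD in SW480, 5 rose and 3 fell with DMSO, 21 rose and 13 fell with TGFB1, and 11 rose and 4 fell with RepSox (9.3%, 39.5% and 17.4% called), beside 4.19% higher and 2.57% lower, 14.7% and 10.0%, and 11.8% and 7.57% of all genes. Without the 3 replicate 1 libraries, of 88 tested, 5 rose and 5 fell, 16 rose and 16 fell, and 10 rose and 7 fell, beside 4.93% higher and 5.25% lower, 10.5% and 10.3%, and 5.99% and 6.28% of all genes. Among the genes named from them, the largest change with Tet2CD in SW480 was that of PTGDS, the synthase of prostaglandin D2, a precursor of a PPARG ligand. PTGDS was 13.01 and 12.5 TPM in SW480 vector cells with DMSO and 710 and 475 TPM with Tet2CD, and it was 0.74 to 3.43 TPM in every SW620 library. Its log2 fold change was 5.93 with DMSO (SE 0.64, adjusted p = 4.1e-05), 6.97 with TGFB1 (SE 0.67, adjusted p = 6.68e-06) and 7 with RepSox (SE 0.68, adjusted p = 1.33e-05), and each call held whichever library was left out. Leaving out the 3 replicate 1 libraries gave 5.34, 5.91 and 5.76 (adjusted p = 7.64e-14, 3.48e-14 and 8.18e-14). GATA2, a repressor of PPARG in fat cell precursors, was 71.8 and 74.1 TPM in SW480 vector cells with DMSO and 12.7 and 19.3 TPM with Tet2CD. GATA2 fell by 1.59, 1.76 and 1.55 on the log2 scale (adjusted p = 0.00713, 0.00153 and 0.00657). With DMSO this was lost without Tet2CD replicate 1 (0.115), vector replicate 1 (0.0581) or vector replicate 2 (0.0586), and with RepSox without vector replicate 2 (0.0729). With RepSox the Tet2CD libraries were far apart, at 3.66 and 33.19 TPM, and the change was -1.03 without replicate 1 and -2.69 without replicate 2. Leaving out the 3 replicate 1 libraries gave -1.44, -1.57 and -1.03 (adjusted p = 5.48e-05, 1.36e-05 and 0.00116).

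Of 17 coregulators and partner receptors tested, 0 rose and 2 fell with Tet2CD in SW480 with DMSO, 1 rose and 5 fell with TGFB1, and 0 rose and 2 fell with RepSox. Beside these stood 4.19% higher and 2.57% lower, 14.7% and 10.0%, and 11.8% and 7.57% of all genes. The medians of the 17 were -0.75, -0.84 and -0.86, against 0.03, 0.07 and 0 over all genes. When the 3 replicate 1 libraries were left out, 0, 1 and 0 rose and 3, 5 and 3 fell, with medians of -0.55, -0.34 and -0.39. MED1, the Mediator subunit that nuclear receptors contact, fell by 1.41, 1.63 and 1.27 on the log2 scale (adjusted p = 0.0204, 0.00353 and 0.0223). NCOR1, a corepressor, fell by 1.5 with DMSO and 1.44 with RepSox (adjusted p = 0.0128 and 0.0113). Both were lost without Tet2CD replicate 1 (adjusted p = 0.0535 to 0.255 for MED1, and 0.218 and 0.145 for NCOR1), and with DMSO and RepSox without vector replicate 2 (0.232 and 0.268 for MED1, and 0.17 and 0.146 for NCOR1). Without all 3 replicate 1 libraries MED1 had changes of -1.14, -1.24 and -1.13 (adjusted p = 0.0171, 0.00494 and 0.0204), and NCOR1 had -1.17 with DMSO and -1.1 with RepSox (adjusted p = 0.00184 and 0.00251). The liver X receptor NR1H3 rose with TGFB1 (1.30, adjusted p = 0.0228), a call lost without Tet2CD replicate 1 (0.237), vector replicate 1 (0.168) or vector replicate 2 (0.0616), and the pseudokinase TRIB3 fell (-1.09, adjusted p = 0.00563). Without the 3 replicate 1 libraries these were 0.87 (adjusted p = 0.0311) and -1.26 (adjusted p = 0.000656).

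Of 15 lipid droplet and triglyceride genes 1 rose and 0 fell with Tet2CD in SW480 with DMSO, 5 rose and 2 fell with TGFB1, and 5 rose and 0 fell with RepSox (medians 0.75, 0.52 and 0.69), against 2, 3 and 3 that rose and 0, 1 and 0 that fell of 16 without the 3 replicate 1 libraries (medians 0.47, 0.51 and 0.33). Of 28 fatty acid oxidation and ketone genes 1 rose and 0 fell, 10 rose and 2 fell, and 3 rose and 0 fell (medians 0.26, 0.39 and 0.33), against 0, 7 and 3 that rose and 0, 2 and 0 that fell without those libraries (medians 0.13, 0.23 and 0.18). Beside each list of this paragraph, 4.19%, 14.7% and 11.8% of all genes were higher and 2.57%, 10.0% and 7.57% lower with all libraries. The medians over all genes were 0.03, 0.07 and 0. SLC25A20, the carnitine carrier of mitochondria, rose by 0.95, 1.30 and 1.04 (adjusted p = 0.0234, 0.00177 and 0.0109). DGAT2, which makes triglyceride, rose by 1.29 with DMSO and 1.23 with RepSox (adjusted p = 0.0112 and 0.00838). With DMSO, DGAT2 and SLC25A20 had adjusted p of 0.057 and 0.0812 without the 3 replicate 1 libraries, and both were lost without Tet2CD replicate 1 (0.166 and 0.26), vector replicate 1 (0.115 and 0.179) or vector replicate 2 (0.0799 and 0.114). Without those 3, DGAT2 had 1.14 with RepSox (adjusted p = 0.015), and SLC25A20 had 1.16 with both TGFB1 and RepSox (adjusted p = 0.00692 and 0.00858). With RepSox, DGAT2 was lost without Tet2CD replicate 1 (0.0631), vector replicate 1 (0.0503) or vector replicate 2 (0.101), and SLC25A20 without vector replicate 2 (0.148). Of 14 fatty acid uptake and binding genes 0 changed with DMSO, 1 rose with TGFB1, and 1 rose and 1 fell with RepSox (medians -0.17, -0.47 and 0.22), against 0, 1 and 1 that rose and 0, 4 and 2 that fell of 15 without the 3 replicate 1 libraries (medians -0.22, -0.27 and -0.29). Of 12 upstream regulators and ligand enzymes 3 rose and 1 fell, 4 rose and 4 fell, and 2 rose and 1 fell (medians 0.42, 0.27 and 0.08), against 3, 4 and 3 that rose and 2, 4 and 2 that fell without those libraries (medians 0.14, 0.06 and 0.28). Of the calls named by rule, 1 of 7 with DMSO, 4 of 16 with TGFB1 and 1 of 11 with RepSox held whichever library was left out, PTGDS in each and TRIB3, GATA2 and SLC25A20 also with TGFB1.

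In SW620, 1 of the 86 pathway genes passed with Tet2CD, beside 0.274% of all genes higher and 0.0392% lower. FADS2, a fatty acid desaturase, rose from 16.2 to 33.2 CPM (log2 0.99, SE 0.13, adjusted p = 0.00192). TGFB1 there raised 12 and lowered 6 of the 86, a share of 20.9%, beside 8.31% higher and 7.27% lower over all genes. HILPDA, a lipid droplet protein that holds back lipolysis, went from 12.8 to 25.6 TPM with DMSO to 45.4 to 67.7 TPM with TGFB1 over both constructs (log2 1.51, SE 0.17, adjusted p = 2.06e-05). ACSL1, which activates fatty acids and is a known PPAR target, rose by 1.81 (SE 0.25, adjusted p = 0.000142), PTGS1 by 1.68 (adjusted p = 0.000786), TRIB3 by 1.25 (adjusted p = 0.000111), PDK1 by 1.2 (adjusted p = 0.000254) and FADS2 by 1.01 (adjusted p = 0.000449). The mitochondrial carrier UCP2 fell by 1.41 (adjusted p = 0.00352), the fatty acid binding protein FABP5 by 1.06 (adjusted p = 0.00231) and HADH, an enzyme of fatty acid oxidation, by 0.85 (adjusted p = 0.00603). These 9 calls held whichever library was left out. By list, 3 of 17 coregulators and 4 of 12 upstream genes rose with 0 fallen, 3 of 14 uptake genes rose and 2 fell, 1 of 15 lipid droplet genes rose and 1 fell, and 1 of 28 oxidation genes rose and 3 fell.

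RepSox raised 1 and lowered 5 of the 86 in SW620 (6.98%), beside 2.01% higher and 2.68% lower over all genes. PDK2, a kinase of the same family as PDK4, was 37.5 to 56.4 TPM with DMSO and 13.5 to 19.4 TPM with RepSox over both constructs (log2 -1.42, SE 0.18, adjusted p = 0.000219). AQP3, a glycerol channel, fell by 1.97 (adjusted p = 0.00215) and G0S2, an inhibitor of lipolysis, by 1.27 (adjusted p = 0.00729), and these 3 held whichever library was left out. In SW480, 0 of the 86 passed with TGFB1 or RepSox in vector or in Tet2CD cells. Each of these comparisons set 2 libraries against 2, so a change may have gone uncalled. Over all genes, TGFB1 there gave 0.268% higher and 0.261% lower in vector cells and 0.085% and 0.00654% in Tet2CD cells, and RepSox 0%. No pathway gene passed in the tests of a difference between lines or constructs. In those tests at most 0.738% of all genes were higher and at most 0.575% lower. Between the vector cells of the lines 27 were higher and 25 lower in SW480 (60.5%), beside 28.9% and 30.0% over all genes. Among them FABP3, a fatty acid binding protein of muscle, was 60.3 to 111 TPM in SW480 and 0.88 to 7.14 TPM in SW620 (log2 4.62, SE 0.34, adjusted p = 5.02e-09). GATA2 was higher in SW480 (3.24, adjusted p = 5.82e-10), and DECR1, an enzyme for unsaturated fatty acids, was lower (-2.82, adjusted p = 1.13e-08).

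**Figure D4:**
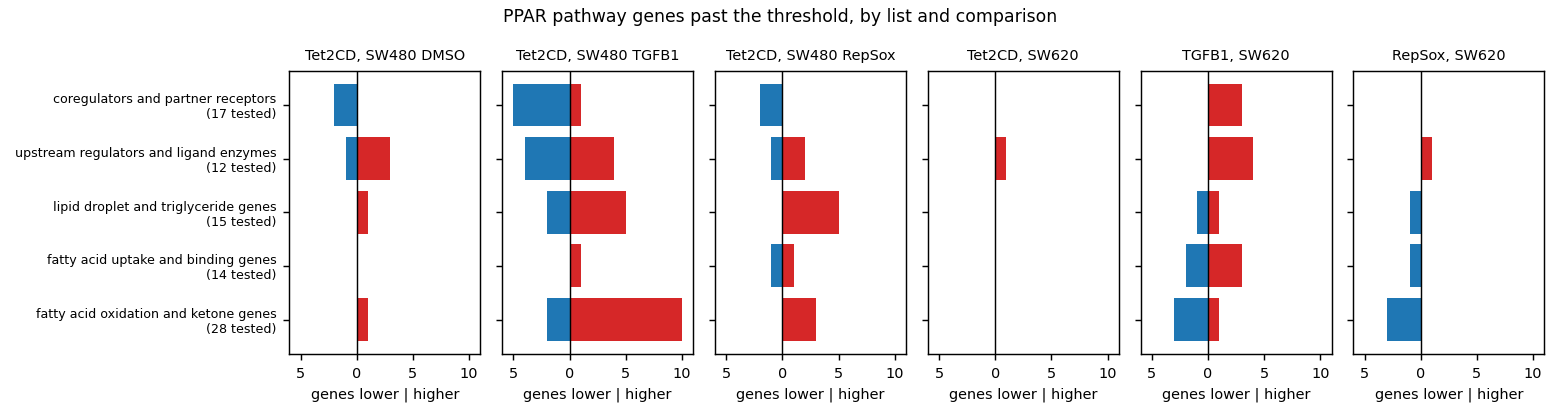
Number of pathway genes that passed as higher (red, to the right of 0) or lower (blue, to the left) by list and comparison, from the edgeR fit. The tested genes a list are 17, 12, 15, 14 and 28 from the top, and 10 fatty acid oxidation genes are higher with Tet2CD in SW480 with TGFB1.

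The genes whose group means were most like those of PPARG were ranked by Pearson r over the 12 group means of log2 CPM among 13984 genes, as a description. The highest were ABALON (0.963), ESRP1 (0.963), a splicing regulator of epithelial cells, ZNF343 (0.96), L3MBTL3 (0.958), ITGB6 (0.956), an epithelial integrin subunit, and AC011447.3 (0.956). ITGB6 had the same order of the 12 groups as PPARG (Spearman's rho 1), from 1.07 on the log2 CPM scale in SW480 Tet2CD cells with DMSO to 4.5 in SW620 Tet2CD cells with TGFB1. Over the 6 SW480 groups alone the highest were MIR1-1HG-AS1 (0.99), ZBTB7C (0.987), Z84723.1 (0.981) and INTS9 (0.98). In the 6 SW620 groups these had 0.604, 0.952, -0.475 and -0.695. Of the 7 genes of the same system, PLIN2 (0.938), RXRB (0.907) and FABP1 (0.786) had the highest values over the 12 groups, PDK4 had 0.236, and PPARA (-0.353), RXRA (-0.53) and PPARD (-0.669) were below 0. The 12 points share the difference between the lines. FABP1 was at 0 in all 6 SW480 groups and passed the filter through SW620 Tet2CD cells with TGFB1, where PPARG was highest. Its value over the 12 groups follows in part from this. Within the 6 SW480 groups PPARD had 0.739, PPARA 0.749 and RXRA 0.833, and within the 6 SW620 groups 0.833, 0.821 and 0.526. PLIN2 had 0.864, RXRB 0.633 and PDK4 0.344 within SW480, and 0.787, 0.935 and 0.487 within SW620.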

How the data were processed

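RNA-seq of 24 libraries (12 groups of 2) was analysed at the level of genes. Per the study's methods, RNA was extracted with TRIzol, libraries were made with a TruSeq kit and sequenced on a NextSeq 500, and reads were trimmed with Trimmomatic and quantified with RSEM on an Ensembl transcriptome, with a normalization for GC content named. The submitters' processing notes list Bowtie, RSEM and mm10, although the gene identifiers are human. The authors deposited a table per library with expected counts, TPM and FPKM per gene, and whether counting was stranded is not stated in what was read here.

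The expected counts were rounded and tested with edgeR 4.0.16 (R 4.3.3): TMM scaling, filterByExpr (15302 of 33382 genes kept, all 8 genes among them), and 1 quasi-likelihood fit with 12 group means and 12 residual degrees of freedom (common biological coefficient of variation 21.3%). P-values were adjusted over all 15302 genes by Benjamini-Hochberg, with a threshold of 0.05. The SE is the log2 fold change over the square root of F, and log2 CPM used a prior count of 2. Symbols and positions came from GENCODE 29 (GRCh38), which matched 98.2% of identifiers. TPM served for levels, and FPKM was left aside as deposited. Intervals and floors cover counting error only. The scripts were tested on simulated data.

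Groups came from the sample labels, and replicate numbers from the order of deposit. Separate cultures are not mentioned for the paired libraries of a group, so p-values rest on scatter within pairs that may be technical. This scatter was shared over the 12 groups in 1 fit, although it was unequal. The SD of log2 differences within a pair was 0.697 to 1.133 in SW480 Tet2CD groups and 0.409 to 0.541 elsewhere. A shared spread may be too small for the SW480 Tet2CD groups and too large for the others, which was not tested. There were 13 planned comparisons and 2 added after the data were seen. Those of PPARG that use SW480 libraries are given as descriptions, also where a test was planned, since the rule that chose it names no treatment for its fall. The 8 genes, the pathway lists and the tests were chosen with earlier results of these data known. From each pathway list and comparison, up to 2 genes that rose and 2 that fell were eligible to be named, by smallest p, and those most like PPARG were the 6 with the highest r over 12 groups and the 4 over the SW480 groups. Alternatives were relative log expression scaling, no filter, a replicate block, each line alone, leaving out libraries, DESeq2 1.42.0 and limma 3.58.1 on log2(TPM + 1). Averages over treatments or constructs were also split, an alternative added after the data were seen.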

Additional observations from a re-analysis of the deposited data

Results flagged for a closer look

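The Tet2CD effect on PPARD with DMSO, taken as the log2 ratio of mean CPM, differed in sign between the lines, -0.67 in SW480 and 0.16 in SW620. With all libraries in the edgeR fit, the SW480 change, there also -0.67, did not pass (adjusted p = 0.0757). In SW620 the effect averaged over treatments was 0.20 (SE 0.14) and did not pass either (adjusted p = 0.854). Every Tet2CD library was below the vector libraries in SW480 and above them in SW620, where PPARD was 13.6 and 12.9 TPM with Tet2CD and 12.7 and 10.9 TPM with vector. The difference itself was not tested, and this was 1 case in 9 pairs of effects for each of 8 genes. How often libraries separate in opposite directions over all genes was not counted. With groups of 2 libraries, this 1 case cannot be told from chance. Groups of 2 libraries were too small to look for single libraries far from their group.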

How the results depend on the processing

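With 2 libraries a group and 2146123 to 4410567 counts a library, FABP1, PDK4 and PPARG in SW480 Tet2CD cells rest on few counts. No called value reversed. PPARG kept direction and call (where not tested, stayed within 1 SE) in 92 of 108 values with 1 library left out, with 8 calls lost and 8 values moved, and in 99 of 111 under other settings, with 4 lost and 8 moved. The 7 others did so in 659 of 676, with 10 lost, 5 gained and 2 moved, and in 652 of 688, with 17 lost, 17 gained and 2 moved. The cause of the changes below was not tested.

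Genes called are given in the order Tet2CD in SW480 with DMSO, TGFB1 and RepSox, Tet2CD in SW620, TGFB1 in SW480 vector and Tet2CD cells and in SW620, RepSox in SW480 vector and Tet2CD cells and in SW620, the lines, the line difference in the Tet2CD effect, the construct difference in the TGFB1 effect, and the added line differences in the TGFB1 and RepSox effects. These were 1035, 3774, 2959, 48, 81, 14, 2383, 0, 0, 717, 9017, 52, 2, 201 and 29. With 1 library left out they ranged over 177 to 1165, 1015 to 6771, 289 to 7271, 14 to 43, 0 to 2, 0 to 17, 1516 to 1938, 0 to 0, 0 to 1656, 343 to 412, 8345 to 8659, 20 to 4066, 0 to 2, 30 to 199 and 2 to 28.

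Without a filter, Tet2CD gave 2367 and 4482 calls in SW480 with DMSO and RepSox and 124 in SW620, TGFB1 209 and 80 in SW480 vector and Tet2CD cells, RepSox 31 and 68 there, and the differences 1061 (Tet2CD between lines), 44 (TGFB1 between constructs) and 113 (RepSox between lines). With each line alone, Tet2CD gave 196, 920 and 308 calls in SW480 and 643 in SW620, TGFB1 0 and 0 in SW480 and 5761 in SW620, RepSox 2861 in SW620, and the construct difference 0. Without the 3 SW480 Tet2CD replicate 1 libraries, Tet2CD gave 1606 (DMSO) and 1935 (RepSox) in SW480 and 467 in SW620, TGFB1 1197, 40 and 5447, RepSox 2430 in SW620, and the differences 316 (Tet2CD), 1541 (TGFB1) and 341 (RepSox between lines). DESeq2 gave 91 for Tet2CD in SW620, 232 and 95 for TGFB1 in SW480, 1 for RepSox in SW480 vector cells, and 265, 10, 456 and 102 for the differences. Limma on log2(TPM + 1) gave 560, 2145 and 1366 for Tet2CD in SW480, 31, 5 and 1386 for TGFB1, 353 for RepSox in SW620, and 119, 1, 43 and 13 for the differences. Relative log expression scaling gave 86 for the Tet2CD difference between lines. Single treatments gave 4, 1 and 5 for Tet2CD in SW620 (DMSO, TGFB1, RepSox), and 5286 (DMSO) and 5711 (RepSox) between lines. In SW620, vector and Tet2CD cells alone gave 759 and 733 for TGFB1 and 132 and 141 for RepSox.

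PPARG with limma changed by -2.28 and -2.1 (Tet2CD with DMSO and RepSox), 1.56 (TGFB1 in Tet2CD cells), 0.57 (RepSox in Tet2CD cells) and 1.55 (construct difference), all in SW480. Between lines it was -1.03, -2.43 and -1.19 with DMSO, TGFB1 and RepSox alone. Its RepSox change in SW620 lost its call with no filter (0.50, adjusted p = 0.26), limma (0.41, 0.462), vector cells alone (0.42, 0.508) and Tet2CD cells alone (0.59, 0.194). With 1 library left out it ranged over 0.43 to 0.55 there, -0.80 to -0.27 for Tet2CD with TGFB1, -0.42 to 0.11 for TGFB1 in SW480 vector cells, -1.59 to -1.41 between lines and 1.24 to 1.77 for the TGFB1 difference between lines.

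A replicate block by library number (21 to 32 against 33 to 44) gave 1515, 4495 and 3928 calls for Tet2CD in SW480 and 81 for its difference between lines, and changed no call among the 8 genes. The numbers did not pair the samples over all groups: deviations correlated at -0.236 to 0.714 over 66 pairs of groups (median 0.031). The correlation was above 0.1 in 12 pairs, so some groups may share a deviation by number, which was not tested.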
